A study of Saccharomyces cerevisiae with 18 samples.

Results

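The 31 genes described here make, esterify or take up ergosterol, the main sterol of budding yeast. They are given by a list of gene names, which comprises the mevalonate and ERG pathway enzymes from ERG10 to ERG4, their electron donors NCP1 and CYB5, the scaffold ERG28, the transcription factors UPC2 and ECM22, the sterol acyltransferases ARE1 and ARE2, and the sterol importers AUS1 and PDR11. All 31 were found among the 6612 transcripts of the table and all passed the filter of a mean of at least 1 TPM (a transcript's share of all transcripts of its library, scaled by length). Messenger RNA was measured in 18 cultures of Saccharomyces cerevisiae. YJM975, a clinical isolate, and RM11, derived from a vineyard isolate, were each grown as a homozygous diploid in synthetic medium with 2% ethanol, glycerol or glucose, 3 biological replicates a group. All cultures were 5 mL, shared the same complete supplement mixture and were labelled as exponentially growing, at an optical density of 0.5 to 1.0. Each strain is 1 genetic background, so a strain difference here is a difference between these 2 genomes.

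Ergosterol is built in stages. Acetyl-CoA is first turned into mevalonate and then into farnesyl pyrophosphate, a building block that is shared with ubiquinone, dolichol and prenylated proteins. Squalene synthase commits farnesyl pyrophosphate to sterols, squalene is oxidised and cyclised to lanosterol, and the late enzymes demethylate, methylate, isomerise and desaturate lanosterol to ergosterol. Many of the late steps consume molecular oxygen and use heme or iron, and the transcription factors Upc2 and Ecm22 raise transcription of ERG genes when sterol is scarce. Surplus sterol is stored as steryl ester, and sterol is imported mainly when oxygen or heme is lacking.

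Some facts of the whole series bear on every result. Each library sums to 1000000 TPM, so sequencing depth and counting error are unknown, and a gene's TPM is a share of the mRNA pool: with such shares, fewer cells that express a gene and less of its RNA per cell cannot be told apart. Replicates correlated with r of 0.9945 to 0.9977 across transcripts, which are not independent. The libraries labelled glucose carry 1 sequencing run label and those of ethanol and glycerol another, so run and medium cannot be told apart in any comparison with glucose, while comparisons of strains within a medium and of ethanol with glycerol lie within 1 run label. The label glucose is itself in doubt: HXK2, the hexokinase of glucose-grown cells, averaged only 5.08 TPM in YJM975 and 2.30 TPM in RM11 there, and FBP1, a gluconeogenic enzyme repressed by glucose, averaged 353 TPM in YJM975 and 809 TPM in RM11. The label glycerol is in doubt for RM11 too: HXK2 averaged 1.84 TPM in YJM975 and 71.3 TPM in RM11 there, its highest group mean, and FBP1 was at its lowest for RM11 (157 TPM). The strain differences in glycerol and glucose and all comparisons of media rest on these libraries, and the media are given as labelled. Genes for cytosolic ribosomal proteins took between 2.84% of all TPM (in YJM975 labelled glucose) and 12.5% (in RM11 in glycerol), and their part in the results below was not tested. The test was limma on log2(TPM + 1), a gene being called at a Benjamini-Hochberg adjusted p below 0.05 over the 6309 transcripts tested, and changes are log2 differences on that scale ± SE, which understate changes of low genes. The median transcript itself differs in many comparisons, and its value is given each time. Centring each library on its median subtracts 0.04 from every strain difference in ethanol, -0.69 in glycerol and -0.43 in glucose, so directions are also given after centring.

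Upstream of many members stand short words that match or resemble binding sequences of Upc2 and Ecm22. The word TCGTATA, the core of the sterol regulatory element, and the related TCGTTNAG, where N is any base, were searched on both strands in the 500 bases before the start codon in the S288C reference assembly R64 from RefSeq. The words cannot match at the same position, since they differ at the fifth base. At the N, the sites before ECM22 held G and A, and those before the other members T or C. TCGTATA was found before 9 of the 31 members (29.0%), against 6.99% of all 6006 genes with a full window. TCGTTNAG was found before 14 members (45.2%), against 5.11% of all genes, and either word before 21 members (67.7%), against 11.7%. A match holds for 7 of the 10 late enzymes, all 3 of the squalene and lanosterol steps, all 3 electron donors and scaffold genes, both regulators and 4 of the 9 mevalonate genes, and for ARE1 and PDR11. The median difference of YJM975 minus RM11 in glucose was -1.11 over the 21 members with a match and -1.02 over the 10 without. In glycerol it was -0.68 with a match and -0.63 without, and in ethanol -0.09 and -0.27. Whether a match goes with the strain difference was not tested. The sites below are 1 from each of 7 genes among those with the largest strain differences, and 1 from UPC2. Capitals mark the word, each site is read in the direction in which the word runs, and the distance is that of its farthest base from the start codon.
ERG3 at 286 bases: aaattcaggcTCGTATAagtggcacaa
ERG25 at 463 bases: gacacagagaTCGTATAcggtaaacga
ERG1 at 382 bases: tagcgggcctTCGTATAgctcggccga
ERG6 at 432 bases: gccccgatctTCGTATAtggtacctcg
CYB5 at 275 bases, opposite strand: tatctcgatcTCGTATAgctttctttt
ERG11 at 134 bases: ataagcagtaTCGTTCAGcgtgtgtatt
ERG20 at 192 bases, opposite strand: acaaggcgttTCGTTTAGaaccgacgag
UPC2 at 360 bases, opposite strand: taaggtgcgcTCGTTTAGagaaaaaaat
These letters come from a laboratory strain and not from YJM975 or RM11, the window can reach into a neighbouring gene, and a match is a description of the sequence, not of binding. No word of either kind stands in this window before ERG5, HMG1, HMG2 or ARE2. No source used here names the genome build behind the table, so positions are given by distance only.

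Over the 6 groups, the lowest level of most sterol genes lay in YJM975 labelled glucose and the highest in RM11 in glycerol. Of the 31 members, 21 had their lowest group mean in YJM975 labelled glucose, as did 42.5% of all tested transcripts, and 18 had their highest in RM11 in glycerol, as did 44.6% of all. Together the members took 0.207 ± 0.00662% of all TPM in YJM975 and 0.220 ± 0.0104% in RM11 in ethanol (SD, n = 3 each). In glycerol the shares were 0.191 ± 0.00551% in YJM975 and 0.325 ± 0.0120% in RM11, and in the libraries labelled glucose 0.0890 ± 0.00389% in YJM975 and 0.190 ± 0.00478% in RM11. The ratio of the highest to the lowest group mean had a median of 4.30 over the members and 2.79 over all tested transcripts. It was 27.6 for ERG11 (YHR007C), the lanosterol demethylase, 25.4 for ERG6 (YML008C), the sterol methyltransferase, 24.1 for ERG5 (YMR015C), the desaturase of the sterol side chain, and 22.4 for ERG25 (YGR060W), the C-4 methyl sterol oxidase. At the other end it was 1.47 for NCP1 (YHR042W), the reductase that passes electrons to Erg11 and Erg5, and 1.64 for HMG2 (YLR450W), one of the pair of HMG-CoA reductases.

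**Figure D1:**
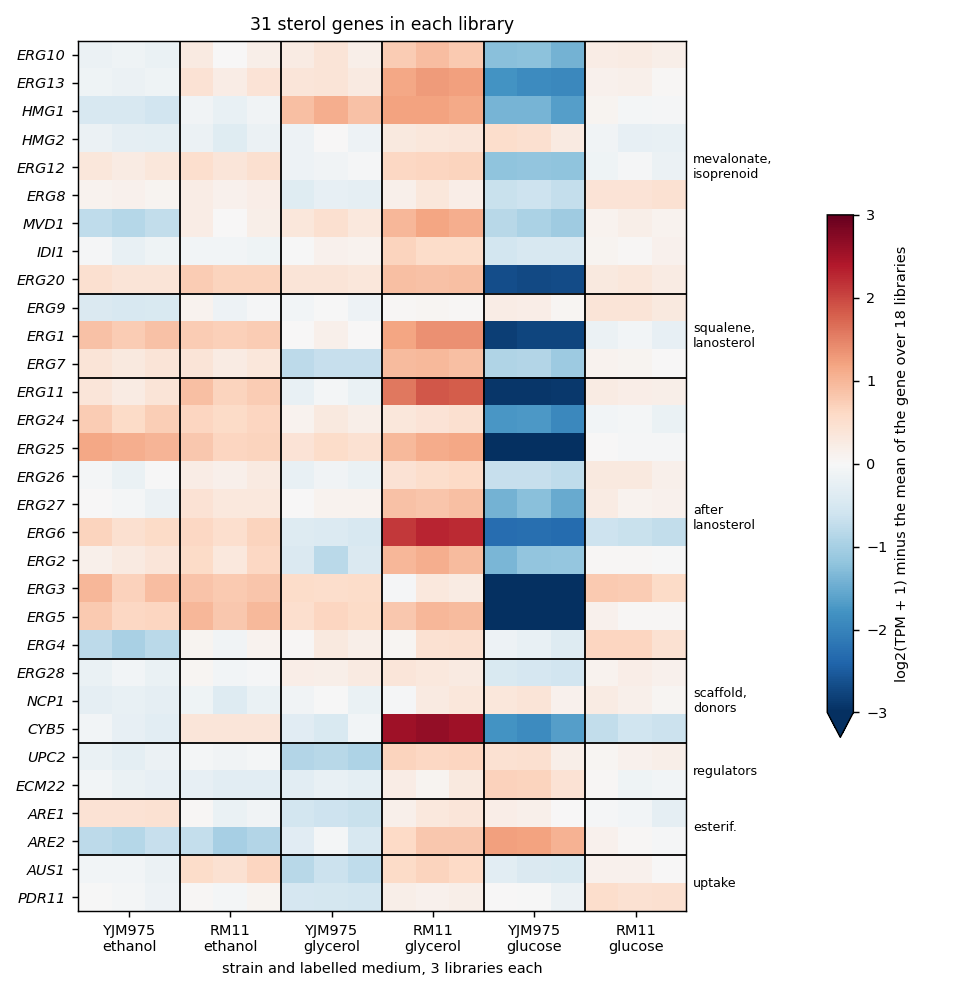
Heat map of the 31 genes (rows, in pathway order) in the 18 libraries (columns, 3 a group). Colour is log2(TPM + 1) minus the gene's mean over all libraries, with the scale ending at -3 and 3. The darkest blue blocks are ERG25, ERG3 and ERG5 in YJM975 labelled glucose and the darkest red are CYB5 and ERG6 in RM11 in glycerol.

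In the libraries labelled glucose, nearly all sterol enzymes were lower in YJM975 than in RM11, and the regulators and acyltransferases were higher. All 10 late enzymes, all 3 squalene and lanosterol enzymes and 8 of 9 mevalonate genes were called lower, with ERG9 turning higher after centring. In total 25 of 31 members were called lower and 5 higher, against 60.7% and 22.5% of all tested transcripts, and after centring the counts were 23 lower and 7 higher. The median difference was -1.65 for the late enzymes and -1.11 for the mevalonate genes, beside -0.38 for all transcripts, or -1.22, -0.68 and 0.05 after centring. By 2-fold or more, 18 members were lower against 23.4% of all transcripts, or 12 members against 12.1% after centring.

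The late enzymes held the largest falls. ERG3 (YLR056W), the C-5 sterol desaturase, had 9.75, 10.7 and 10.3 TPM in YJM975, against 167, 165 and 145 TPM in RM11. ERG25 had 17.6, 16.5 and 16.2 TPM in YJM975 and 178, 173 and 172 TPM in RM11. ERG5 had 2.52, 2.22 and 2.60 TPM in YJM975 and 33.1, 31.1 and 30.8 TPM in RM11. In each of the 3 genes every YJM975 library lay far below every RM11 library, and the log2 differences were -3.83 ± 0.09, -3.30 ± 0.06 and -3.25 ± 0.07 (limma adjusted p = 9.21e-17, 5.58e-18 and 5.08e-17). ERG11, the target of azole antifungals, had 11.2, 11.1 and 11.3 TPM in YJM975 and 108, 105 and 102 TPM in RM11, a difference of -3.12 ± 0.07 (limma adjusted p = 1.18e-16). ERG6 differed less, with 7.94, 8.15 and 7.86 TPM in YJM975 and 27.4, 26.6 and 25.1 TPM in RM11 (-1.61 ± 0.06, limma adjusted p = 4.21e-14). CYB5 (YNL111C), the cytochrome that donates electrons to sterol desaturation, had 9.84, 9.11 and 10.9 TPM in YJM975 and 21.4, 23.8 and 22.9 TPM in RM11, a difference of -1.12 ± 0.08.

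Earlier in the pathway the differences were uneven. ERG20 (YJL167W), the farnesyl pyrophosphate synthase, had 12.8, 12.4 and 12.4 TPM in YJM975 and 105, 109 and 103 TPM in RM11, a difference of -2.98 ± 0.04. ERG1 (YGR175C), the squalene epoxidase and the first oxygen-consuming step, had 10.1, 10.6 and 10.7 TPM in YJM975 and 69.02, 73.6 and 64.9 TPM in RM11 (-2.61 ± 0.06). In both genes the libraries of the strains stood far apart. ERG13 (YML126C), the HMG-CoA synthase, had 14.04, 13.1 and 12.8 TPM in YJM975 and 56.3, 56.9 and 52.6 TPM in RM11 (-1.97 ± 0.06). Between ERG20 and ERG1 in the pathway, ERG9 (YHR190W), the squalene synthase, stayed close, with 134, 130.3 and 118 TPM in YJM975 and 148, 149.5 and 139 TPM in RM11. Its difference of -0.19 ± 0.06 was called (limma adjusted p = 0.00893) but turned to 0.23 after centring, and the call was lost when replicate 3 of YJM975 was left out (-0.14, limma adjusted p = 0.0574). NCP1 had 80.2, 82.6 and 68.98 TPM in YJM975 and 74.6, 70.4 and 65.8 TPM in RM11, groups that overlap, with a difference of 0.13 ± 0.09 that was not called (limma adjusted p = 0.195).

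The other enzymes were called lower in YJM975 in glucose too, by smaller margins. Of the mevalonate genes, the acetyl-CoA thiolase ERG10 differed by -1.51 ± 0.07, the decarboxylase MVD1 by -1.08 ± 0.07, the mevalonate kinase ERG12 by -1.08 ± 0.05, the phosphomevalonate kinase ERG8 by -1.11 ± 0.05 and the isopentenyl pyrophosphate isomerase IDI1 by -0.59 ± 0.05. IDI1, next before ERG20 in the pathway, had 138, 145 and 146 TPM in YJM975 and 217, 209 and 223 TPM in RM11, and its fall was a small part of that of ERG20. Of the later genes, the C-14 reductase ERG24 differed by -1.69 ± 0.07, the ketosteroid reductase ERG27 by -1.55 ± 0.07, the sterol decarboxylase ERG26 by -0.96 ± 0.06, the isomerase ERG2 by -1.26 ± 0.10, the lanosterol synthase ERG7 by -1.03 ± 0.06 and the final reductase ERG4 by -0.83 ± 0.11. ERG25, ERG26 and ERG27 encode the complex that removes methyl groups at C-4, held together by the scaffold ERG28, and the strain difference was largest for ERG25 and smallest for ERG28 (-0.66 ± 0.05), with 154, 149 and 141 TPM in YJM975 and 228, 243 and 233 TPM in RM11. All of these kept a lower call after centring.

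**Figure D2:**
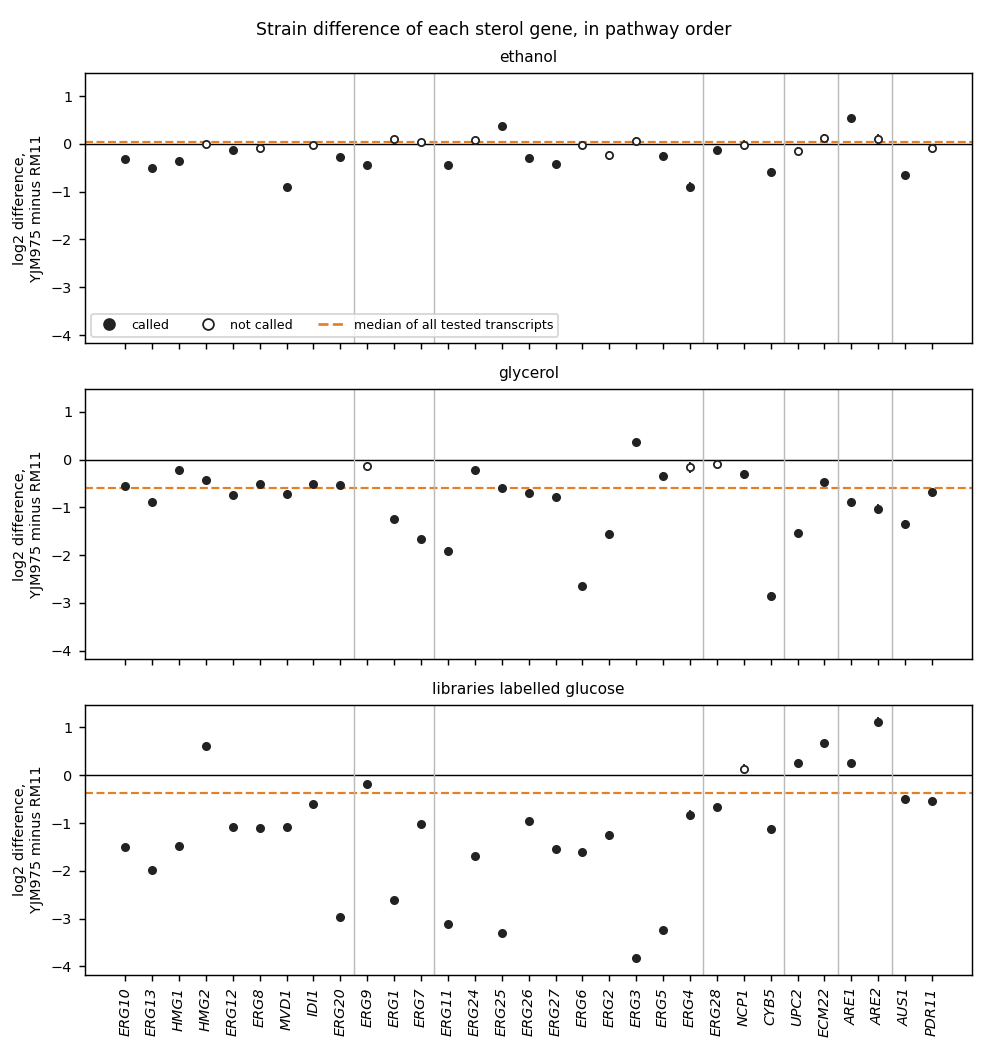
Log2 difference of TPM + 1, YJM975 minus RM11, for each of the 31 genes in pathway order, in ethanol, glycerol and the libraries labelled glucose (bars are SE, often smaller than the point; the dashed line is the median of all tested transcripts). In glucose ERG3 lies lowest at -3.83 while HMG2, UPC2, ECM22, ARE1 and ARE2 lie above 0; in ethanol no gene lies beyond -1 or 1.

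**Figure D3:**
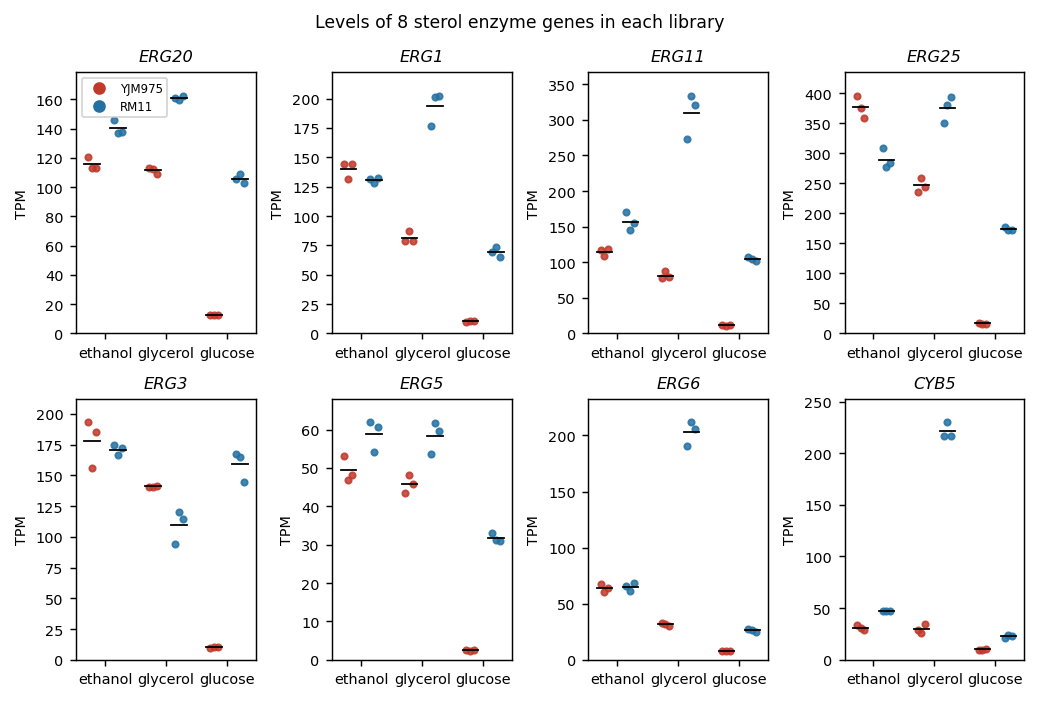
TPM of 8 enzyme genes in every library (points; bars are group means of 3), with YJM975 left of RM11 in each medium. ERG20, ERG1, ERG11, ERG25, ERG3 and ERG5 are near the axis in YJM975 labelled glucose, and ERG11, ERG6 and CYB5 are highest in RM11 in glycerol.

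In glycerol CYB5, ERG6 and ERG11 were far lower in YJM975, ERG3 was higher, and most other members lay nearer the difference of all transcripts. 27 of 31 members were called lower and 1 higher in YJM975, against 70.1% and 16.2% of all tested transcripts. With centring the counts were 14 higher and 11 lower. The members' median difference was -0.68, beside -0.59 for all transcripts, and 9 members were lower by 2-fold or more against 31.4% of all. CYB5 differed most, with 28.7, 26.3 and 34.4 TPM in YJM975 and 217, 229.9 and 217 TPM in RM11, a difference of -2.86 ± 0.08 (limma adjusted p = 2.05e-15). ERG6 came next, with 32.5, 31.6 and 30.4 TPM in YJM975 and 190.5, 212 and 206 TPM in RM11 (-2.65 ± 0.06, limma adjusted p = 9.34e-17). For both genes the RM11 libraries in glycerol were the highest of the series and the strains did not overlap. ERG11 had 77.3, 87.03 and 79.6 TPM in YJM975 and 274, 333 and 321 TPM in RM11, a difference of -1.91 ± 0.07.

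Other members that fell with ERG11 in glycerol were ERG7 (YHR072W), the lanosterol synthase, which averaged 10.7 ± 0.384 TPM in YJM975 cells and 35.8 ± 0.653 TPM in RM11 cells (-1.66 ± 0.06), and ERG2 (YMR202W), the sterol isomerase, with means of 24.9 ± 3.77 TPM in YJM975 cells and 75.2 ± 3.48 TPM in RM11 cells (-1.57 ± 0.10; SD, n = 3 each). These, ERG6, CYB5 and ERG1 (-1.23 ± 0.06) remained lower after centring. Outside the enzymes and electron donors of synthesis, UPC2 (-1.53 ± 0.08), AUS1 (-1.35 ± 0.08) and ARE2 (-1.03 ± 0.10) were called lower too, UPC2 and AUS1 at low levels. ERG3 went the other way and was the 1 member called higher: it had 141, 140.4 and 142 TPM in YJM975 and 93.9, 119.9 and 114 TPM in RM11, a difference of 0.37 ± 0.09 (limma adjusted p = 6.75e-04).

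In ethanol the strains came close. 15 members were called lower and 2 higher in YJM975, against 21.2% and 26.8% of all transcripts, and centring gave 19 lower and 2 higher. No member differed by 2-fold or more, as against 2.44% of all transcripts lower and 2.28% higher by that much. ERG3, the largest fall in glucose, had 193, 156 and 185 TPM in YJM975 and 174, 167 and 172 TPM in RM11, groups that overlap and were not called different (0.05 ± 0.09, limma adjusted p = 0.64). ERG25 (0.38 ± 0.06) and ARE1 (0.53 ± 0.08) were the 2 members called higher, ERG25 with 395, 375 and 358 TPM in YJM975 and 308, 277 and 283 TPM in RM11. The largest falls were those of MVD1 (YNR043W), the mevalonate pyrophosphate decarboxylase, with 10.5, 9.74 and 10.7 TPM in YJM975 and 21.5, 18.6 and 20.8 TPM in RM11 (-0.91 ± 0.07, limma adjusted p = 1.11e-08), and ERG4 (YGL012W), the reductase of the last step, with 10.2, 8.90 and 10.02 TPM in YJM975 and 19.7, 17.2 and 19.9 TPM in RM11 (-0.89 ± 0.11, limma adjusted p = 1.88e-06). In both, the strains did not overlap. Smaller falls were called for ERG13 (-0.50 ± 0.06), ERG9 (-0.44 ± 0.06), ERG11 (-0.45 ± 0.07), CYB5 (-0.59 ± 0.08) and ERG5 (-0.25 ± 0.07). ERG6 had 67.98, 60.1 and 63.9 TPM in YJM975 and 65.7, 60.9 and 68.4 TPM in RM11 and was not called (-0.02 ± 0.06).

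Within YJM975, sterol enzymes were higher in glycerol than in the libraries labelled glucose. 22 of 31 members rose and 9 fell, against 41.2% and 42.6% of all transcripts; centring gave the same counts. All 10 late enzymes rose, with a median of 1.92 beside -0.02 for all transcripts, and 8 of 9 mevalonate genes rose, with a median of 1.33. The largest rises were those of ERG25 (3.80 ± 0.06), with 236, 259 and 244 TPM in glycerol and 17.6, 16.5 and 16.2 TPM in glucose, and of ERG5 (3.76 ± 0.07), with 43.4, 48.3 and 45.8 TPM in glycerol and 2.52, 2.22 and 2.60 TPM in glucose. ERG3 (3.66 ± 0.09) and ERG20 (3.05 ± 0.04) came next, and ERG1 (2.85 ± 0.06) and ERG11 (2.75 ± 0.07) after them. The 9 members that fell were HMG2, ERG9, NCP1, both regulators, both acyltransferases and both importers. On the log2(TPM + 1) scale ARE2 (YNR019W) fell most, with 20.4, 25.1 and 18.6 TPM in glycerol and 62.7, 62.3 and 55.03 TPM in glucose (-1.46 ± 0.10, limma adjusted p = 2.05e-10). UPC2 (YDR213W) came next, with 1.82, 1.90 and 1.69 TPM in glycerol and 6.06, 6.22 and 4.83 TPM in glucose (-1.25 ± 0.08, limma adjusted p = 5.83e-11). That scale understates changes of low genes, and in proportion of mean TPM the fall of UPC2 was the larger.

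In RM11 CYB5 and ERG6 rose most in glycerol and ERG3 fell. 25 members rose in glycerol and 5 fell, against 53.0% and 28.7% of all transcripts, or 21 and 7 after centring. The late enzymes had a median of 0.78, beside 0.23 for all transcripts, or 0.50 beside -0.05 after centring. CYB5 rose most, with 217, 229.9 and 217 TPM in glycerol and 21.4, 23.8 and 22.9 TPM in glucose (3.23 ± 0.08), followed by ERG6 with 190.5, 212 and 206 TPM in glycerol and 27.4, 26.6 and 25.1 TPM in glucose (2.90 ± 0.06). ERG11 rose by 1.54 ± 0.07. Of the 5 members that fell, ERG3 (-0.54 ± 0.09) and PDR11 (-0.33 ± 0.07) changed most, and the regulators and acyltransferases rose by 0.27 to 0.70, against their falls in YJM975. After centring, the rises of ECM22 (-0.01) and ARE1 (0.12) were no longer called.

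In ethanol against glucose, the late enzymes as a group rose further in YJM975 than in RM11, and ARE2 fell in both. In YJM975 23 members rose in ethanol and 7 fell, against 56.5% and 30.3% of all transcripts, or 18 and 10 after centring. The late enzymes had a median of 2.67, beside 0.35 for all transcripts, led by ERG25 (4.40 ± 0.06), ERG3 (3.99 ± 0.09) and ERG5 (3.87 ± 0.07), and ERG20 rose by 3.10 ± 0.04. ARE2 fell most, to 14.97 ± 0.965 TPM in ethanol against 60.01 ± 4.31 TPM in glucose (-1.93 ± 0.10; SD, n = 3 each), and ECM22 next, with 8.49, 7.78 and 7.56 TPM in ethanol and 15.4, 15.1 and 12.6 TPM in glucose (-0.78 ± 0.08). The rises of ARE1 (0.32 ± 0.08) and AUS1 (0.28 ± 0.08) turned to -0.12 and -0.16 after centring. In RM11 14 members rose and 10 fell, against 32.0% and 37.4% of all, the same counts as after centring, with a median of 0.53 for the late enzymes. ERG6 (1.27 ± 0.06) and CYB5 (1.03 ± 0.08) rose most, and ARE2 (-0.91 ± 0.10) and ERG4 (-0.55 ± 0.11) fell most, ERG4 with 19.7, 17.2 and 19.9 TPM in ethanol and 29.2, 29.4 and 25.6 TPM in glucose.

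Between ethanol and glycerol, which share a run label, HMG1 and MVD1 were lower in ethanol in both strains and several later steps went opposite ways in the strains. In YJM975 14 members were called higher in ethanol and 9 lower, against 64.0% and 13.1% of all transcripts, whose median was 0.36; with centring the counts were 8 higher and 17 lower. In RM11 2 were called higher and 24 lower, against 21.4% and 54.1% of all transcripts, whose median was -0.23, or 9 and 15 after centring. Without the libraries labelled glucose, members called in either direction numbered 25 in YJM975 and 26 in RM11, against 23 in YJM975 and 26 in RM11 with them. HMG1 (YML075C) was lower in ethanol in both strains, at 15.7, 15.6 and 14.6 TPM in ethanol and 42.4, 48.6 and 41.9 TPM in glycerol in YJM975 (-1.47 ± 0.07), and 20.4, 18.98 and 20.6 TPM in ethanol and 52.4, 52.1 and 49.8 TPM in glycerol in RM11 (-1.32 ± 0.07). MVD1 was lower in both too, in YJM975 with 10.5, 9.74 and 10.7 TPM in ethanol and 23.5, 25.9 and 23.1 TPM in glycerol (-1.16 ± 0.07 in YJM975 and -0.96 ± 0.07 in RM11). These falls held after centring.

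Several later steps moved in opposite directions between these media. ERG7 was higher in ethanol in YJM975, with 24.3, 22.6 and 24.1 TPM in ethanol and 10.2, 10.96 and 10.8 TPM in glycerol (1.08 ± 0.06), and lower in RM11, with 24.2, 21.7 and 23.2 TPM in ethanol and 35.9, 36.5 and 35.2 TPM in glycerol (-0.62 ± 0.06). ERG6 differed by 1.00 ± 0.06 in YJM975 and -1.63 ± 0.06 in RM11. ERG1 differed by 0.78 ± 0.06 in YJM975 and -0.56 ± 0.06 in RM11. All 6 of these calls kept their sign after centring. CYB5 had 34.1, 30.4 and 29.04 TPM in ethanol and 28.7, 26.3 and 34.4 TPM in glycerol in YJM975, where the groups overlap and no call was made (0.07 ± 0.08, or -0.35 and called lower after centring). Without replicate 3 of YJM975 in glycerol CYB5 was called higher (0.17, limma adjusted p = 0.0480). In RM11 it had 47.4, 47.2 and 47.1 TPM in ethanol and 217, 229.9 and 217 TPM in glycerol, far apart (-2.20 ± 0.08). ERG4 was lower in ethanol in YJM975 (-1.03 ± 0.11). In RM11, ERG3 (0.65 ± 0.09) and ERG24 (YNL280C), the C-14 sterol reductase, were the 2 members called higher. ERG24 had 58.99, 56.4 and 59.4 TPM in ethanol and 48.05, 50.3 and 53.3 TPM in glycerol (0.20 ± 0.07), a call lost without replicate 1 of RM11 in glycerol (limma adjusted p = 0.0541).

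**Figure D4:**
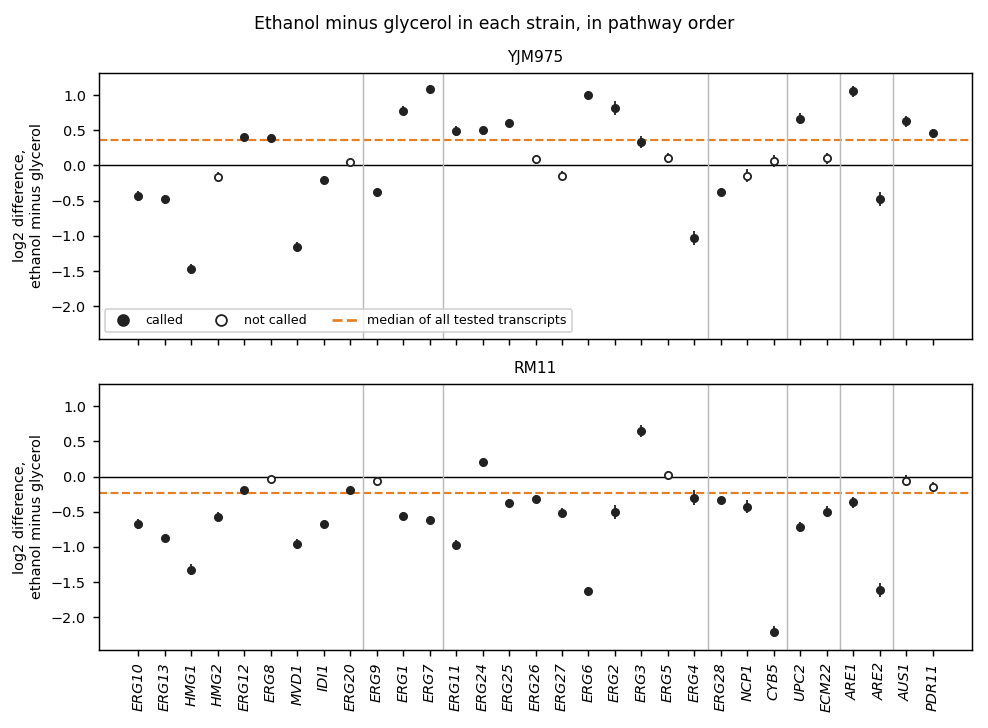
Log2 difference of TPM + 1, ethanol minus glycerol, for each gene in pathway order in YJM975 and in RM11 (bars are SE; the dashed line is the median of all tested transcripts). HMG1 and MVD1 are low in both strains, and ERG6 and ERG7 lie above 0 in YJM975 and below 0 in RM11.

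The difference between the strains' changes was tested for every member. For glycerol minus glucose 17 members were called with a more positive change in YJM975 than in RM11 and 10 with a more negative one, against 31.5% and 46.7% of all transcripts, or 19 and 9 after centring. For ethanol minus glucose the counts were 22 and 5, against 56.5% and 20.2%, or 17 and 9 after centring. For ethanol minus glycerol they were 23 and 3, against 65.4% and 15.4%, and 10 and 17 after centring. The single largest were those of ERG3 in the comparisons with glucose, 4.20 ± 0.12 for glycerol and 3.88 ± 0.12 for ethanol, and that of ERG6 for ethanol minus glycerol, 2.63 ± 0.08.

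The HMG-CoA reductases, the rate-controlling enzymes of the pathway, did not move together. In YJM975 HMG1 had 7.83, 7.80 and 6.34 TPM and HMG2 41.8, 40.4 and 34.9 TPM in the libraries labelled glucose. In RM11 the same libraries held 23.5, 21.2 and 21.5 TPM of HMG1 and 26.3, 24.04 and 24.5 TPM of HMG2. So in glucose HMG1 was lower in YJM975 (-1.47 ± 0.07, limma adjusted p = 3.19e-12) and HMG2 higher (0.62 ± 0.07, limma adjusted p = 3.04e-07), with no overlap of the strains in either gene. The ratio of HMG1 to HMG2 was 0.642 ± 0.0232 in YJM975 and 0.832 ± 0.0249 in RM11 in ethanol (SD, n = 3 each). In glycerol it was 1.66 ± 0.0268 in YJM975 and 1.42 ± 0.0769 in RM11, and in glucose 0.187 ± 0.00556 in YJM975 and 0.884 ± 0.00867 in RM11, so that HMG1 exceeded HMG2 in glycerol only. In glycerol the differences of HMG1 (-0.21 ± 0.07) and HMG2 (-0.43 ± 0.07) between the strains turned to 0.47 and 0.26 after centring. Without replicate 3 of YJM975 in glycerol that of HMG1 was not called (-0.18, limma adjusted p = 0.0566).

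UPC2 and ECM22 (YLR228C) were expressed at low levels. UPC2 had 3.52, 3.22 and 3.59 TPM in YJM975 and 3.98, 3.81 and 3.97 TPM in RM11 in ethanol. In glycerol it had 1.82, 1.90 and 1.69 TPM in YJM975 and 7.22, 6.94 and 7.11 TPM in RM11. In glucose it had 6.06, 6.22 and 4.83 TPM in YJM975 and 4.39, 4.63 and 4.78 TPM in RM11. The strains did not overlap for UPC2 in any of the 3 media, but in glucose they adjoined (4.83 TPM in YJM975 and 4.78 TPM in RM11). The difference in ethanol was not called (-0.15 ± 0.08, limma adjusted p = 0.124). It was called only after centring (-0.19) or rescaling without the 50 most abundant transcripts. UPC2 was lower in YJM975 in glycerol (-1.53 ± 0.08, limma adjusted p = 2.94e-12) and higher in glucose (0.25 ± 0.08, limma adjusted p = 0.00602). ECM22 had 15.4, 15.1 and 12.6 TPM in YJM975 and 9.30, 8.21 and 8.48 TPM in RM11 in glucose, and was called higher in YJM975 (0.67 ± 0.08). In glycerol it had 7.12, 7.67 and 7.19 TPM in YJM975 and 10.8, 9.65 and 11.4 TPM in RM11, and was called lower (-0.48 ± 0.08), or higher after centring (0.21). In ethanol it had 8.49, 7.78 and 7.56 TPM in YJM975 and 7.44, 7.05 and 7.12 TPM in RM11, next to each other without overlap, and was not called (0.12 ± 0.08). In the libraries labelled glucose, then, both regulator transcripts were higher in YJM975 while of the enzymes from ERG10 to ERG4 all but HMG2 were called lower, ERG9 turning higher after centring. In glycerol UPC2 was lower in YJM975 together with ERG11, ERG6 and CYB5, also after centring (-0.84). The members did not all go this way: after centring 14 were called higher and 11 lower in YJM975 in glycerol. ERG3 was called higher before centring too (0.37 ± 0.09). Whether the levels of the regulator transcripts bear on those of the enzymes was not tested.

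Of the acyltransferases that store sterol as ester, ARE2 varied more. ARE2 had 62.7, 62.3 and 55.03 TPM in YJM975 and 28.8, 26.8 and 25.4 TPM in RM11 in glucose (1.12 ± 0.10). In glycerol it had 20.4, 25.1 and 18.6 TPM in YJM975 and 40.4, 46.6 and 46.7 TPM in RM11 (-1.03 ± 0.10), so that the strains stood apart in both media, in opposite directions. In ethanol it had 14.9, 14.03 and 15.95 TPM in YJM975 and 15.5, 12.5 and 13.8 TPM in RM11 and was not called (0.10 ± 0.10). ARE1 (YCR048W) was higher in YJM975 in ethanol, at 19.9, 19.98 and 20.3 TPM against 14.8, 12.5 and 13.5 TPM in RM11 (0.53 ± 0.08), and lower in glycerol, at 9.58, 9.17 and 8.75 TPM against 16.2, 18.3 and 18.96 TPM in RM11 (-0.89 ± 0.08). In glucose its difference was 0.25 ± 0.08. The ratio of ARE1 to ARE2 was 1.34 ± 0.0772 in YJM975 and 0.977 ± 0.0207 in RM11 in ethanol, and 0.266 ± 0.00470 in YJM975 and 0.491 ± 0.0214 in RM11 in glucose. ARE1 overlaps YCR050C on the opposite strand by 298 bases in assembly R64, and reads from the overlap cannot be assigned without strand.

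The importers AUS1 (YOR011W) and PDR11 (YIL013C), ATP-driven transporters of the plasma membrane, stayed low, PDR11 being highest in RM11 in glucose with 8.40, 7.93 and 8.15 TPM. AUS1 was lower in YJM975 in every medium, at 2.91, 2.91 and 2.67 TPM against 5.03, 4.68 and 5.49 TPM in RM11 in ethanol (-0.66 ± 0.08). In glycerol it had 1.34, 1.65 and 1.45 TPM in YJM975 and 5.15, 5.54 and 5.25 TPM in RM11 (-1.35 ± 0.08), and in glucose 2.35, 2.08 and 2.01 TPM in YJM975 and 3.49, 3.56 and 3.20 TPM in RM11 (-0.49 ± 0.08). No medium had overlapping strains. After centring the difference in glucose was not called (-0.06). PDR11 had 3.61, 3.58 and 3.47 TPM in YJM975 and 6.35, 6.12 and 6.46 TPM in RM11 in glycerol (-0.68 ± 0.07, or 0.0040 after centring), and was lower in YJM975 in glucose (-0.54 ± 0.07).

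**Figure D5:**
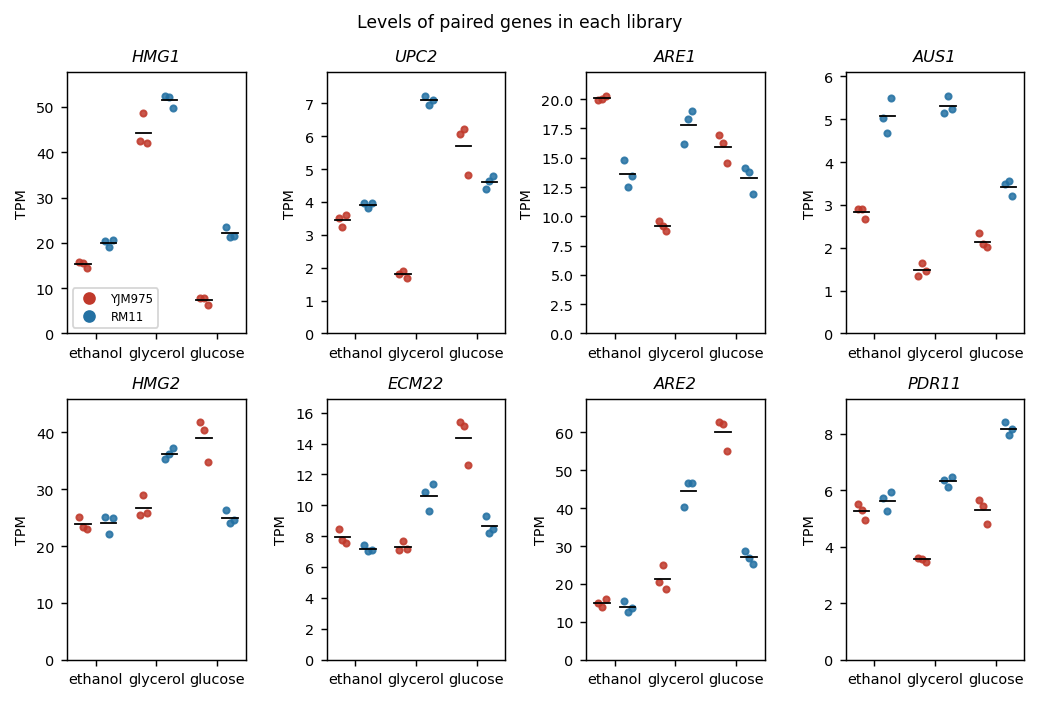
TPM of the paired genes HMG1 and HMG2, UPC2 and ECM22, ARE1 and ARE2, and AUS1 and PDR11 in every library (points; bars are group means of 3), with YJM975 left of RM11 in each medium. In glucose HMG2, UPC2, ECM22 and ARE2 are higher in YJM975 and HMG1, AUS1 and PDR11 lower.

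The median levels of early and late steps stood differently to each other in the 2 strains in 2 media. The median log2(TPM + 1) level of the 10 late enzymes minus that of the 9 mevalonate genes was 0.53 ± 0.0601 in YJM975 and 0.48 ± 0.0115 in RM11 in ethanol (SD, n = 3 each). It was -0.22 ± 0.0750 in YJM975 and 0.37 ± 0.0548 in RM11 in glycerol, and -0.18 ± 0.0313 in YJM975 and 0.34 ± 0.0681 in RM11 in glucose. Every YJM975 library in glycerol and glucose lay below 0 and every RM11 library above it, while in ethanol the strains' ranges adjoined. A common scaling of a library leaves this difference nearly as it is, since it acts on both medians. It compares median levels of 2 gene sets and not the strain differences of single genes, which in glycerol were uneven among the late enzymes. There ERG6 differed by -2.65 ± 0.06 and ERG3 by 0.37 ± 0.09, while ERG24 averaged 43.2 TPM in YJM975 and 50.5 TPM in RM11. So it does not show that the late steps as a class fell more than the early ones in glycerol. It is a description over chosen genes and carries no test.

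Of 46 other genes of sterol and isoprenoid metabolism, taken from a list made for this description, 32 were called lower and 7 higher in YJM975 in glucose, with a median of -0.53, or 23 and 19 after centring. Before centring that is 69.6% lower and 15.2% higher, near the 60.7% and 22.5% of all transcripts. In glycerol 31 were lower and 8 higher (median -0.50), or 17 and 24 after centring, against 70.1% and 16.2% of all transcripts. In ethanol 10 were lower and 11 higher (median 0.00), against 21.2% and 26.8% of all. Largest in glucose were the falls of OSH6 (-2.55 ± 0.06), a lipid transfer protein, SIP3 (-2.36 ± 0.07), a sterol transfer protein at membrane contacts, and COQ2 (-1.90 ± 0.10), which prenylates the ubiquinone ring. In glycerol they were the falls of SRT1 (-3.85 ± 0.08), a prenyltransferase of dolichol synthesis, PRY2 (-3.08 ± 0.11), a secreted sterol-binding protein, and SUT1 (-2.89 ± 0.14), a transcription factor of sterol uptake, which averaged 4.37 ± 0.807 TPM in YJM975 and 38.7 ± 4.78 TPM in RM11. In ethanol SUT2 was higher in YJM975 (2.10 ± 0.13) and PRY2 (-1.23 ± 0.11) and SRT1 (-1.22 ± 0.08) lower. SUT1 was lower in ethanol than in glycerol in both strains (-2.05 ± 0.14 in YJM975 and -4.39 ± 0.14 in RM11). Its means in ethanol were very low, 0.291 TPM in YJM975 and 0.914 TPM in RM11. HAP1, the heme-dependent activator of ERG genes, averaged from 17.6 TPM (YJM975 in glycerol) to 26.8 TPM (YJM975 in ethanol).

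Of 12 genes regulated by oxygen or heme that were set beside the members, 9 passed the filter; DAN1 and AAC3 did not, and HYP2, of which ANB1 is a near-identical copy, is listed at 0 in every library. In YJM975 in glucose 4 of the 9 were called higher and 4 lower, against 22.5% and 60.7% of all transcripts. OLE1, the fatty acid desaturase, which also consumes oxygen, averaged 44.1 ± 2.96 TPM in YJM975 and 458 ± 23.98 TPM in RM11 in glucose (-3.35 ± 0.10; SD, n = 3 each) and 775 ± 81.6 TPM in YJM975 and 901 ± 94.8 TPM in RM11 in ethanol (-0.22 ± 0.10). HEM13, a heme synthesis gene that is induced when oxygen is low, averaged 115 ± 2.30 TPM in YJM975 and 57.3 ± 2.98 TPM in RM11 in glucose (0.99 ± 0.06), and 18.1 ± 0.427 TPM in YJM975 and 40.1 ± 2.52 TPM in RM11 in glycerol (-1.10 ± 0.06). CYC7 and COX5B, the hypoxic isoforms of cytochrome c and of a cytochrome oxidase subunit, were higher in YJM975 in glucose by 3.57 ± 0.06 and 2.45 ± 0.06. The anaerobic wall protein genes did not all move the same way. TIR3 averaged 3.67 ± 0.444 TPM in YJM975 and 6.13 ± 0.609 TPM in RM11 in glucose and was called lower (-0.61 ± 0.09). TIR4 averaged 4.64 ± 0.309 TPM in YJM975 and 6.80 ± 0.583 TPM in RM11 and was called lower (-0.47 ± 0.11). DAN4 averaged 9.53 ± 0.434 TPM in YJM975 and 12.5 ± 1.21 TPM in RM11 and was called lower (-0.35 ± 0.07). TIR1 was called higher (0.32 ± 0.13). ANB1, which is not a wall protein gene, was not called (-0.03 ± 0.13). As HYP2 is listed at 0 throughout, the values of ANB1 may include reads of HYP2. After centring TIR3 stayed lower (-0.19), TIR4 (-0.04) and DAN4 (0.07) were not called, and ANB1 was called higher (0.40). The part of these genes in the results was not tested.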

How the data were processed

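Poly(A) transcript levels of 18 diploid yeast cultures (2 strains, 3 media, 3 replicates each) were read from 1 table of the whole series, whose values the authors deposited as TPM. Per the submitters' processing notes the tool was kallisto, with no version, settings, transcript set or build stated. TPM keep no depth, so counting error could not be assigned. Transcripts with a mean of at least 1 TPM (6309 of 6612) were tested with limma 3.58.1 on log2(TPM + 1), as 6 group means over all 18 libraries with an intensity trend (12 residual degrees of freedom), in 12 contrasts, with Benjamini-Hochberg adjustment over all tested transcripts and a threshold of 0.05. The procedure was tested on simulated data. Alternatives were other pseudocounts and filters, median centring, rescaling without the 50 most abundant transcripts, subsets of groups, a replicate block and leaving out each library. Symbols matched RefSeq R64 for 5929 transcripts and not for 683. No member had a near-identical copy. All 31 members may be named; values in every library are given for the 2 largest called rises and falls per contrast and for the isoenzyme and regulator pairs. Members and lists were chosen with earlier results of these data known. No library pair was identical; the labels call the replicates biological.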

Additional observations from a re-analysis of the deposited data

Results flagged for a closer look

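The change between media differed between YJM975 and RM11 for most members and for most transcripts, by limma's test of the difference itself (change in YJM975 minus change in RM11, 3 libraries a group). For glycerol minus glucose the test called 27 of 31 members, with 31.5% of all transcripts called for a more positive change in YJM975 and 46.7% for a more negative one. ERG3 differed by 4.20, ERG5 by 2.91 and ERG25 by 2.69 on the log2 scale. ERG3 rose in YJM975 and fell in RM11 (-0.54 ± 0.09), and ERG5 and ERG25 rose less in RM11. ARE2 differed by -2.16, UPC2 by -1.78, ECM22 by -1.15 and HMG2 by -1.05, having fallen in YJM975 and risen in RM11 (ECM22 there only before centring). CYB5 differed by -1.74, having risen in both strains and more in RM11.

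For ethanol minus glucose 27 members were called, against 56.5% and 20.2% of all transcripts, with ERG3 at 3.88, ERG25 at 3.68 and ERG5 at 3.00. For ethanol minus glycerol, within 1 run label, 26 were called, against 65.4% and 15.4% of all transcripts, a share near that of the members, with ERG6 at 2.63, CYB5 at 2.27 and ERG7 at 1.69. Groups of 3 libraries are too small for the test of single outlying samples.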

How the results depend on the processing

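The number of members called stayed within 1.5 times its value in all 12 comparisons under all alternatives that apply to it. Leaving out 1 library at a time gave 15 to 18 members between strains in ethanol, 27 to 29 in glycerol and 29 to 30 in glucose. Between ethanol and glycerol it gave 23 to 25 in YJM975 and 25 to 27 in RM11. The split into higher and lower moved more. Between strains in glycerol, centring gave 14 higher and 11 lower against 1 and 27, and rescaling without the 50 most abundant transcripts gave 3 higher. For ethanol minus glycerol, centring gave 8 higher and 17 lower in YJM975 against 14 and 9 (15 lower with that rescaling), and 9 and 15 in RM11 against 2 and 24. For the strains' difference in that change it gave 10 and 17 against 23 and 3, and the rescaling 14 and 8. For ethanol minus glucose centring gave 9 with a more negative change in YJM975 against 5. At a filter of 10 TPM, which keeps 27 members, 3 were higher between strains in glucose against 5, 5 were lower for glycerol minus glucose in YJM975 against 9, and 3 had a more negative change for ethanol minus glucose in YJM975 against 5. Class medians moved with centring by the shift of the comparison, beyond the spread used as a limit in 73 of 96 cases, and so did the median of all transcripts. Of the 157 single differences named, leaving out a library kept the call 2809 times of 2826. No direction reversed where a call was made with or without the library. Sign changes of differences that were not called either way were not counted. By the same count, median centring turned the direction of 12. Between strains in glycerol these were HMG1 (0.47, and 0.13 when rescaled without the 50 most abundant transcripts), HMG2 (0.26), ECM22 (0.21) and PDR11 (0.0040), and in glucose ERG9 (0.23). Between media they were ECM22 for glycerol minus glucose in RM11 (-0.012), ARE1 (-0.12) and AUS1 (-0.16) for ethanol minus glucose in YJM975, CYB5 (-0.35) and ECM22 (-0.32) for ethanol minus glycerol in YJM975, and AUS1 (0.25) and PDR11 (0.17) for the same in RM11. Centring assumes that the median transcript is level, which was not tested. The replicate numbers do not pair the samples: same-numbered libraries of different groups had correlations of their deviations between -0.217 and 0.159, and in 0 of 15 pairs of groups were all 3 over 0.1. With the replicate number as a block, 17 members were called between strains in ethanol, 28 in glycerol and 30 in glucose, as without it, and no other count moved by more than 1. The unknown depth limits what can be said of UPC2, AUS1 and PDR11, whose levels were lowest.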
